A study of Mus musculus with 4 samples.

Results

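The 39 genes described here act in S phase, when a cell copies its DNA. They were taken as a named list and looked up by symbol in the table of RPKM values (read numbers divided by gene length and by the mapped reads of the library), and 39 of 39 were found among its 23240 genes. They fall into 15 MCM and origin factors, 13 polymerase, clamp and fork proteins, 5 enzymes of nucleotide supply and 3 E2F transcription factors. The other 3, Slbp, Chaf1a and Chaf1b, serve histone supply and chromatin assembly and were kept as a group of their own. All 39 had a mean of at least 1 RPKM and entered the test, as did 9595 genes in all.

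The 4 libraries came from mouse leukaemic bone marrow cells that the labels give as acute myeloid leukaemia (AML) with RUNX1 and FLT3-ITD, where FLT3-ITD is an internal tandem duplication that activates the FLT3 receptor. All were sorted as GFP+BFP+CD11b-Gr1-, so that cells with the myeloid surface markers CD11b and Gr1 were left out. In culture, for 22 h, the SFEM medium contained FLT3L, SCF, IL3 and IL11, and either 4OHT (4-hydroxytamoxifen, the active form of tamoxifen) at 200 nM or an equal amount of its solvent ethanol (EtOH) was added. Replicate 1 of each arm was B6.Runx1-delta/delta and replicate 2 was B6.Runx1-delta/+, so each combination of treatment and genotype was 1 library. Genotype therefore cannot be told apart from replicate number, mouse or culture. The labels do not say which protein 4OHT acts on or whether the libraries came from separate mice. The p-values therefore cover no spread beyond these 4 samples. Other samples that the protocols mention were not analysed here.

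DNA replication starts at origins, where the origin recognition complex, CDC6 and CDT1 load rings of MCM2 to MCM7, and geminin holds CDT1 back so that no origin is used again in the same cycle. CDC45 and the GINS complex turn the loaded MCM ring into the moving helicase, and the polymerases follow, held on the DNA by the PCNA clamp. Ribonucleotide reductase, thymidylate synthase and thymidine kinase supply the deoxynucleotides. Many of these genes are classic targets of E2F factors, which act as the cycle passes from G1 into S. In bone marrow, dividing progenitors, red cell precursors among them, express these genes at high levels.

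Promoter sequences were available for 34 of the 39 genes, all but Gins1, Gins2, Gmnn, Mcm4 and Pole, in a RefSeq table of build GRCm38.p6. Each window ran from 250 bases before a transcription start to 50 bases after it. It was searched on both strands for the E2F-type letters TTTCCCGC, TTTCGCGC, TTTGGCGC and TTTGCCGC, where overlapping matches were counted separately and each gene once. Such letters stood in 12 of the 34 (35.3%), against 5.16% of 6982 tested genes with a window and 2.6% of all 27025 genes with one. The 12 genes were Mcm3, Mcm5, Mcm6, Mcm7, Orc1, Cdc6, Cdt1, Rfc3, Pola1, Pold1, Lig1 and E2f2. Printed below is 1 stretch each of E2f2, Cdt1 and Lig1, which fell with 4OHT, of Mcm5, which was higher in delta/delta, and of Mcm6 and Mcm7 as helicase partners that did not pass either test. Capitals mark the matched letters or, where the strand is opposite, their reverse complement.
E2f2: gcggcatatagTTTGGCGCtaa
Cdt1: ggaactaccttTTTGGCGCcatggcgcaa
Lig1: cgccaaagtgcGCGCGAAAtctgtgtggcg
Mcm5: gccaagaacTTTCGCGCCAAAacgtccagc
Mcm6: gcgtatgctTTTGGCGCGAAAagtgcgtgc
Mcm7: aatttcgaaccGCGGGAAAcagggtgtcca
These stretches lie at chr4:136172302-136172323 (E2f2), chr8:122568036-122568064 (Cdt1), chr7:13278841-13278870 (Lig1) and chr8:75109347-75109376 (Mcm5), all on the plus strand, and at chr1:128359795-128359824 (Mcm6) and chr5:138172030-138172059 (Mcm7) on the minus strand. The capitals of Mcm5 and Mcm6 hold overlapping matches, one on each strand. Mcm6 has 1 further match, 39 bases before the start, and Mcm7 has 1 after the start, neither printed. Those of E2f2, Cdt1 and Lig1 lie just after the annotated start. E2f2 has a match at 1 of its 2 annotated starts and Lig1 at 1 of 3. With the search limited to the 100 bases before the start, 3 of 34 genes (8.82%) held a match, against 1.95% of tested genes.

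The letters CCAAT, on either strand, stood within 100 bases before the start in 18 of the 34 genes (52.9%), against 27.4% of tested genes and 21.6% of all genes with a window, and in the whole window in 61.8% against 44.2% of tested genes. TTTGAA, the core of the cell cycle homology region, was held by 14.7% of the 34 windows and by 13.9% of those of tested genes, and in the 100 bases before the start by 3 of 34 (8.82%) against 3.88%. Pcna, Rrm1, Rrm2 and Rpa1 fell with 4OHT and hold none of the E2F-type letters searched. Rpa1 has 1 CCAAT in the 100 bases before the start, not printed. For Pcna, Rrm1 and Rrm2 the 100 bases before the start are shown with CCAAT, or ATTGG where the strand is opposite, in capitals.
Pcna: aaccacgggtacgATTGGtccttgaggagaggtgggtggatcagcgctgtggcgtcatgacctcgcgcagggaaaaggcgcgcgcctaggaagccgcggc
Rrm1: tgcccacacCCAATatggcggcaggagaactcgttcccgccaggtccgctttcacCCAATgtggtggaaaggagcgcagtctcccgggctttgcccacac
Rrm2: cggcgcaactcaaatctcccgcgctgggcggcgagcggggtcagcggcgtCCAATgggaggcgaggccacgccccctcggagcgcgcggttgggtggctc
They lie at chr2:132253181-132253280 (Pcna, minus strand), chr7:102441595-102441694 (Rrm1, plus strand) and chr12:24708154-24708253 (Rrm2, plus strand). A match is a description of the letters and not a site shown to be bound.

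Depth recovered from the steps between RPKM values was 33.71 to 39.41 M mapped reads per library. Read numbers were worked out with the shortest coding transcript of each gene, so they are lower bounds. The smallest behind any value of the 39 genes was about 379, a counting error of at most 5.14%, and the median about 2423. Runx1, the gene whose alleles define the genotypes, stood at 568.4 and 380.5 RPKM in EtOH and 4OHT of delta/delta, and at 555.4 and 327.7 RPKM in delta/+; 1 value per gene can include reads from outside a deleted part, so this does not check the labels. Of the leukocyte and progenitor markers, Ptprc (CD45) ran from 0.904 to 5.90 RPKM, Kit and Cd34 from 0.0484 to 1.61 RPKM and Spn from 72.2 to 239.9 RPKM. Itgam, which encodes CD11b, was below 0.4 RPKM throughout, and Cd3e, Ms4a1 and Pax5 were listed at 0. Some other myeloid and lymphoid markers were present. S100a8 ran from 9.39 to 30.5 RPKM, S100a9 from 5.47 to 12.4 RPKM and Lck from 0.542 to 2.40 RPKM. The 18 erythroid markers in the table summed to 63220 and 33900 RPKM in the EtOH libraries (delta/delta, delta/+) and to 4752 and 3148 RPKM with 4OHT; 17 of the 18 fell, 0 rose, and none was at 0. The erythroid factors Klf1 and Gata1 were highest in the delta/delta EtOH library, at 305.0 and 308.0 RPKM, and lowest in the delta/+ 4OHT library, at 65.3 and 141.8 RPKM. Not all markers kept this order. Of the 18, 15 were highest in the delta/delta EtOH library and 3 in the delta/+ EtOH library. Hbb-b2 was highest in delta/+ with EtOH, at 390.2 RPKM, and lowest in delta/delta with 4OHT, at 17.2 RPKM. Rhag, Hba-a2, Epb4.2, Hbb-bh1 and Hbb-y were also lowest in delta/delta with 4OHT. The delta/delta EtOH library was the highest in the erythroid sum and, as given next, in most of the 39 genes. The part of erythroid cells in the results below was not tested. Fewer cells of a type and less RNA per cell cannot be told apart in such bulk samples.

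The delta/delta EtOH library held most of these transcripts at their highest level. It was the highest of the 4 libraries for 29 of the 39 genes (74.4%), against 20.6% of all genes tested. The median of the 39 was 67.7 RPKM there, 56.7 RPKM in delta/delta with 4OHT, 50.0 RPKM in delta/+ with EtOH and 46.1 RPKM in delta/+ with 4OHT. Over all genes tested the medians were 11.6, 13.0, 12.3 and 13.4 RPKM in the same order. The summed level of the 39 genes was 0.854%, 0.664%, 0.687% and 0.622% of all RPKM. Pcna had the highest level of the 39 in every library and Orc1, the large subunit of the origin recognition complex, the lowest.

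**Figure D1:**
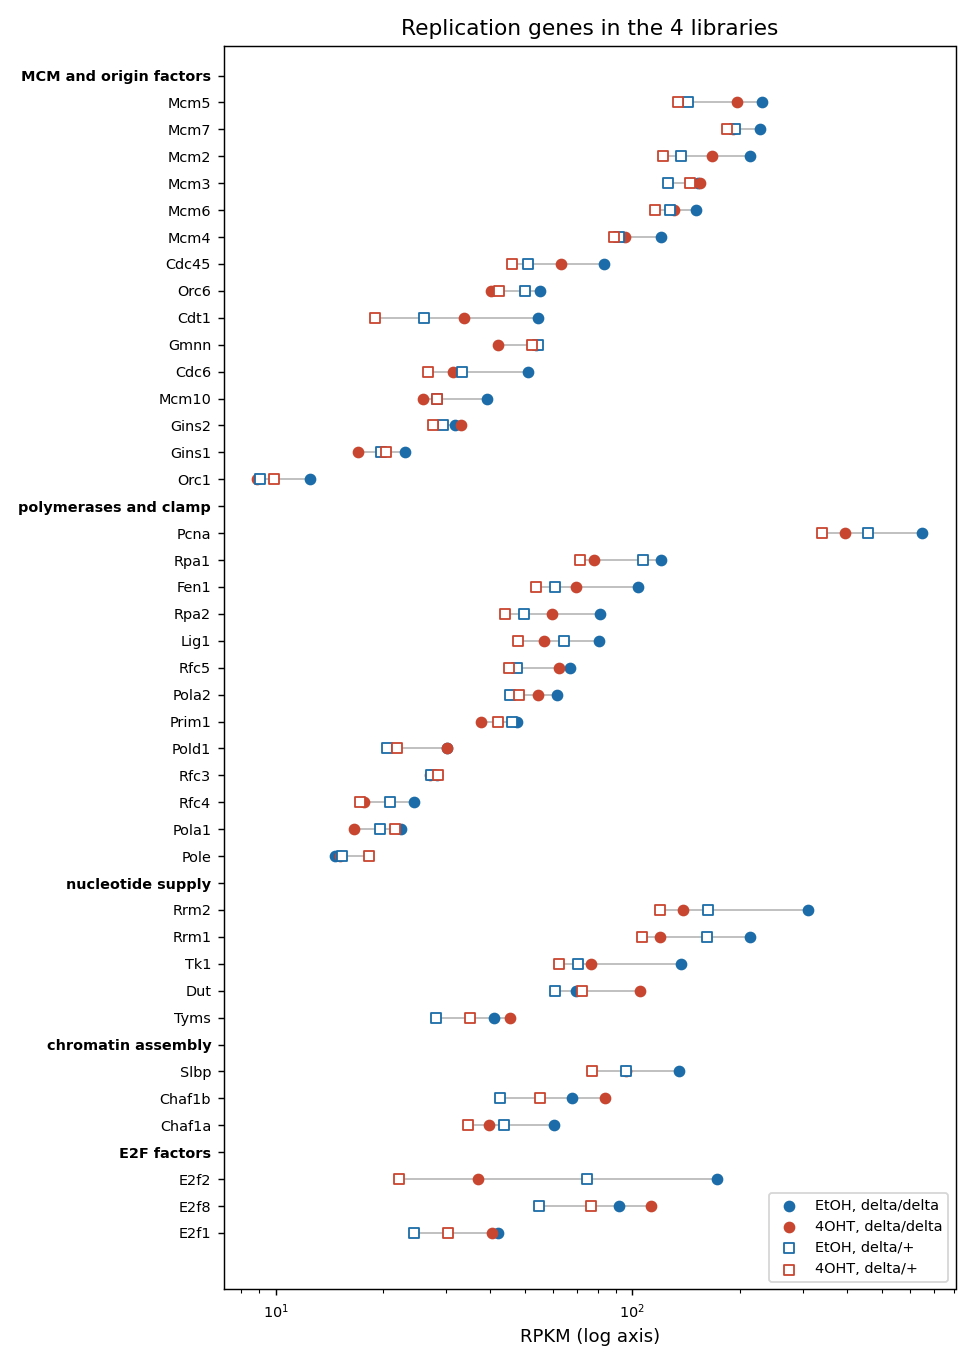
Level of each of the 39 genes in the 4 libraries, in RPKM on a log axis. Genes are grouped by role and ordered within a group by their level in the delta/delta EtOH library. Filled circles are delta/delta and open squares delta/+, blue is EtOH and red 4OHT, with 1 point per library and a grey line over their range. The filled blue circle is the rightmost point for 29 of the 39 genes.

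With 4OHT, 7 of the 39 genes fell and 0 rose (limma, Benjamini-Hochberg adjusted p under 0.05 over all genes tested). The 7 were E2f2, the nucleotide reductase subunits Rrm1 and Rrm2, the single-strand binding subunit Rpa1, the clamp Pcna, the origin licensing factor Cdt1 and the DNA ligase Lig1. Among all genes tested, 10.2% fell and 22.2% rose. At an unadjusted p under 0.05, 12 of the 39 were lower and 3 higher, the latter being Dut, Chaf1b and E2f8. The share of all genes tested at an unadjusted p is not given, here or below. Such counts therefore cannot be set against the adjusted shares. The median log2 change of the 39 was -0.20, and that of all genes tested 0.16. In 14 of the 39 both EtOH libraries were above both 4OHT libraries, as in 16.9% of genes tested, and the reverse held for 1, Dut, against 38.4%.

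The calls depended on the scaling of the libraries, on the filter and on the genotype term. With no filter on low values 3 of the 7 falls passed, and Cdt1, Pcna, Lig1 and Rrm2 did not. After scaling each library by its median ratio to the others, which moved the median of all genes from 0.16 to -0.03 on the log2 scale, 17 of the 39 fell and 0 rose, where 17.4% of genes tested fell and 15.3% rose. Without the replicate block, that is with the genotype term left out, 0 of the 39 fell, 3 had an unadjusted p under 0.05, and 1.21% of genes tested fell. With 1 library left out as well, 1 arm holds a single genotype, so such a change mixes treatment with genotype. The median was -0.03 without the delta/delta EtOH library, where 19 of the 39 were above 0. It was -0.39 without the delta/+ EtOH library. Within the delta/+ pair alone the median was -0.095.

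Among the 15 MCM and origin factors only Cdt1 passed the test, as a fall, where 10.2% of all genes tested fell. Levels of this licensing factor were 54.5 (EtOH) and 33.7 RPKM (4OHT) in delta/delta, and 26.0 and 19.0 RPKM in delta/+. It was lower with 4OHT in both genotypes, but the delta/delta level with 4OHT was above the delta/+ level with EtOH, so the arms overlapped. The log2 change was -0.55 (limma adjusted p = 0.0369, SE 0.14). Cdc6, its partner in loading the MCM ring, had 51.1, 31.4, 33.2 and 26.7 RPKM (EtOH and 4OHT of delta/delta, then EtOH and 4OHT of delta/+, the order used from here on). Both 4OHT values were below both EtOH values, with a log2 change of -0.50 that missed the threshold (limma adjusted p = 0.0619, SE 0.16). Orc6, a small subunit of the origin recognition complex, had 55.2, 40.3, 49.99 and 42.2 RPKM (log2 change -0.34, limma adjusted p = 0.114, SE 0.14), again with no overlap of the arms.

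The helicase subunits Mcm2 to Mcm7 did not pass the test. Mcm2 had the smallest p of the 6, at 213.3, 167.1, 136.9 and 122.0 RPKM (log2 change -0.26, limma adjusted p = 0.174, SE 0.13). Both delta/delta libraries were above both delta/+ libraries, and within each genotype the 4OHT library was the lower. The genotype difference of Mcm2 did not pass either (log2 difference 0.54, limma adjusted p = 0.0533, SE 0.13). The mean over the 6 subunits was 182.6, 156.2, 136.4 and 131.7 RPKM. Within a library the highest of the 6 exceeded the lowest 1.92-fold to 2.11-fold per length. Mcm5 was the highest in both delta/delta libraries and Mcm7 in both delta/+ libraries. Mcm3 was the 1 subunit above 0 (log2 change 0.12, SE 0.13), and it was below 0 after median-ratio scaling. Over the 15 genes the median change was -0.19, with 10 below 0 and 1 above 0 in both genotypes.

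Geminin (Gmnn), the inhibitor of Cdt1, had 53.5, 41.9, 54.3 and 52.4 RPKM and did not pass (log2 change -0.20, SE 0.15, adjusted p = 0.335 by limma). The ratio of Gmnn to Cdt1 was 0.983 and 1.24 in delta/delta, and 2.09 and 2.75 in delta/+. It was higher with 4OHT than with EtOH in both genotypes, and the gap between genotypes was wider than the gap between treatments. No test was run on these ratios. Of the helicase activators, Cdc45 had 83.1, 62.9, 51.1 and 46.1 RPKM (log2 change -0.27, limma adjusted p = 0.194), and the GINS subunits Gins1 and Gins2 had changes of -0.19 and -0.02.

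Of the 13 polymerase, clamp and fork genes, 3 fell, where 10.2% of all genes tested did. Rpa1, the large subunit of the protein that coats single-stranded DNA, had 120.7, 77.9, 107.4 and 71.1 RPKM. The EtOH libraries lay close together and well above both 4OHT libraries (log2 change -0.61, limma adjusted p = 0.0204, SE 0.13). Of the 7 falls it differed least between the genotypes, 1.55-fold in delta/delta and 1.51-fold in delta/+. Its partner Rpa2 had 81.4, 59.5, 49.6 and 44.0 RPKM and did not pass (log2 change -0.31, SE 0.14, adjusted p = 0.153 by limma); for Rpa2 the delta/delta library with 4OHT lay above the delta/+ library with EtOH.

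Pcna, the sliding clamp, had 649.8, 393.5, 456.7 and 339.6 RPKM. Both EtOH libraries were above both 4OHT libraries, and the log2 change was -0.57 (limma adjusted p = 0.0235, SE 0.13). Lig1, which joins Okazaki fragments, had 80.8, 56.7, 64.2 and 47.8 RPKM, also without overlap (log2 change -0.46, limma adjusted p = 0.0468, SE 0.13). Lig1 was the call nearest the threshold, and with genes kept only at a mean of at least 5 RPKM it no longer passed (the largest adjusted p of the 7 was then 0.0543). Fen1, the nuclease that trims Okazaki fragments before ligation, had 103.7, 69.6, 60.8 and 53.9 RPKM and did not pass (log2 change -0.37, SE 0.15, adjusted p = 0.122 by limma).

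None of the 3 clamp loader subunits and 5 polymerase and primase genes among the 39 passed. Rfc4, a clamp loader subunit, had 24.4, 17.7, 20.9 and 17.3 RPKM (log2 change -0.35, limma adjusted p = 0.108, SE 0.14), with both 4OHT libraries the lower. Rfc3 and Rfc5, the other loader subunits among the 39, had log2 changes of 0.00 and -0.08. The catalytic subunits of the 3 replicative polymerases, Pola1 for alpha, Pold1 for delta and Pole for epsilon, had -0.14, 0.04 and 0.14, and the primase Prim1 -0.22. Rfc3, Pold1 and Pole were below 0 after median-ratio scaling. The median over the 13 genes was -0.22.

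In nucleotide supply, both subunits of ribonucleotide reductase fell, and the other 3 enzymes did not pass. Rrm1, the large catalytic subunit, had 213.7, 119.6, 161.8 and 106.7 RPKM, with both EtOH libraries above both 4OHT libraries (log2 change -0.71, limma adjusted p = 0.0151, SE 0.13). Rrm2, the small subunit that is made in S phase, had 311.5, 139.0, 163.5 and 119.9 RPKM (log2 change -0.80, limma adjusted p = 0.0316, SE 0.20). The delta/delta EtOH library stood apart for Rrm2, whose fall was 2.24-fold in delta/delta and 1.36-fold in delta/+. The ratio of Rrm1 to Rrm2 was 0.686, 0.860, 0.989 and 0.890, so the small subunit had the higher value per length in every library, by the widest margin in delta/delta with EtOH.

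Tk1, the cytosolic thymidine kinase of the salvage route, had 136.9, 76.8, 70.5 and 62.4 RPKM. It was low in 3 libraries and high in delta/delta with EtOH, and the log2 change of -0.50 did not pass (limma adjusted p = 0.0977, SE 0.19). Dut, the dUTPase that keeps uracil out of DNA, went the other way, at 69.6, 104.8, 60.8 and 72.3 RPKM. It was the 1 gene of the 39 with both 4OHT libraries above both EtOH libraries, but its change of 0.41 did not pass (limma adjusted p = 0.0823, SE 0.15). Tyms, thymidylate synthase, had 41.0, 45.5, 28.2 and 35.0 RPKM (log2 change 0.23, limma adjusted p = 0.253).

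None of the 3 chromatin assembly genes passed the test for 4OHT. Slbp, which binds the stem-loop of histone mRNAs, had 135.3, 95.9, 96.2 and 77.2 RPKM (log2 change -0.40, limma adjusted p = 0.0668, SE 0.13). Chaf1a and Chaf1b encode the large and middle subunits of the same histone chaperone, chromatin assembly factor 1, and their changes had opposite signs. Chaf1a had 60.4, 39.7, 43.6 and 34.7 RPKM (log2 change -0.46, limma adjusted p = 0.0611, SE 0.14), and Chaf1b had 67.7, 84.0, 42.6 and 55.1 RPKM (log2 change 0.33, limma adjusted p = 0.103, SE 0.13). The ratio of Chaf1b to Chaf1a was 1.12 and 0.976 with EtOH, and 2.12 and 1.59 with 4OHT. Both 4OHT libraries thus had the higher ratio, although neither gene's change passed on its own and the ratio was not tested.

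E2f2 had the largest change of the 39 genes. This activator of the E2F family had 172.2, 36.8, 74.7 and 22.1 RPKM. Both 4OHT libraries were below both EtOH libraries, by 4.67-fold in delta/delta and 3.38-fold in delta/+ (log2 change -1.95, limma adjusted p = 0.0032, SE 0.17). It was rank 136 among the falls of all genes tested. Its highest level was in the delta/delta EtOH library, where the erythroid sum was also highest, and its lowest in the delta/+ 4OHT library, where that sum was lowest.

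The other E2F factors did not pass the test. E2f1, another activator, had 41.9, 40.4, 24.5 and 30.3 RPKM (log2 change 0.12, limma adjusted p = 0.563, SE 0.15), and its change was -0.09 after median-ratio scaling. E2f8, a repressor that lowers E2F targets later in S phase, had 92.0, 113.1, 54.9 and 76.4 RPKM (log2 change 0.38, limma adjusted p = 0.0783, SE 0.13). The order of the 3 factors by RPKM differed between the arms. E2f2 exceeded E2f1 by 4.11-fold and 3.05-fold with EtOH, and the ratio was 0.911 and 0.729 with 4OHT. The ratio of E2f8 to E2f2 was 0.534 and 0.734 with EtOH and 3.07 and 3.45 with 4OHT, while that of E2f8 to E2f1 ran only from 2.19 to 2.80 over the 4 libraries.

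**Figure D2:**
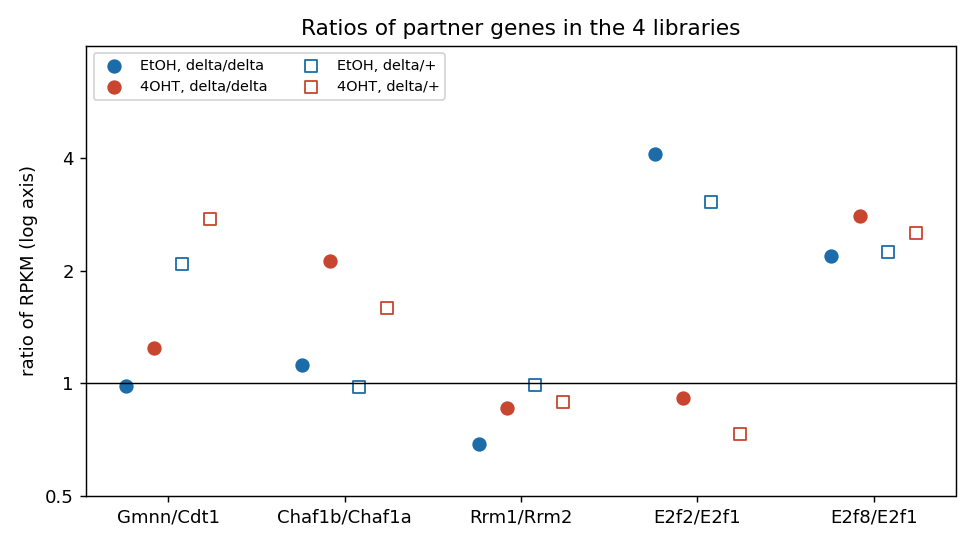
Ratio of RPKM between partner genes in each library, on a log axis where the line at 1 means equal levels per length. Filled circles are delta/delta and open squares delta/+, blue is EtOH and red 4OHT, with 1 point per library and no error. E2f2/E2f1 is 4.11 and 3.05 with EtOH and lies below 1 with 4OHT, while E2f8/E2f1 stays between 2.19 and 2.80.

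Within each genotype the response to 4OHT is a comparison of 1 library with 1 library and has no test, since a term for the difference between genotypes would leave no residual degree of freedom. The median log2 change of the 39 genes was -0.40 in delta/delta and -0.10 in delta/+. The log2 ratio was lower in delta/delta for 37 of the 39, all but Gins2 and Dut, and for 45.6% of all genes tested. This order was not particular to the 39. Among the lists described below, medians in delta/delta and delta/+ were -0.489 and -0.06 for G2 and mitosis, and -0.454 and -0.099 for cyclins and kinases. They were -0.267 and 0.03 for other polymerase and fork genes, and -0.185 and 0.119 for other origin and helicase genes. Other nucleotide supply genes had the higher median in delta/delta, 0.628 against 0.466. The sign was the same in both genotypes for 31 of the 39, 24 below 0 and 7 above, against 81.3% of all genes tested. Rrm2, Tk1, Mcm10, Orc1 and Pola1 had the widest gaps between the genotypes. Mcm10, which helps start the helicase, had 39.3, 26.0, 28.3 and 28.4 RPKM, so its delta/delta EtOH library was high and the other 3 lay close together. Because the delta/delta EtOH library is the base of every delta/delta ratio, a high value in that library and a stronger response in that genotype cannot be told apart.

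**Figure D3:**
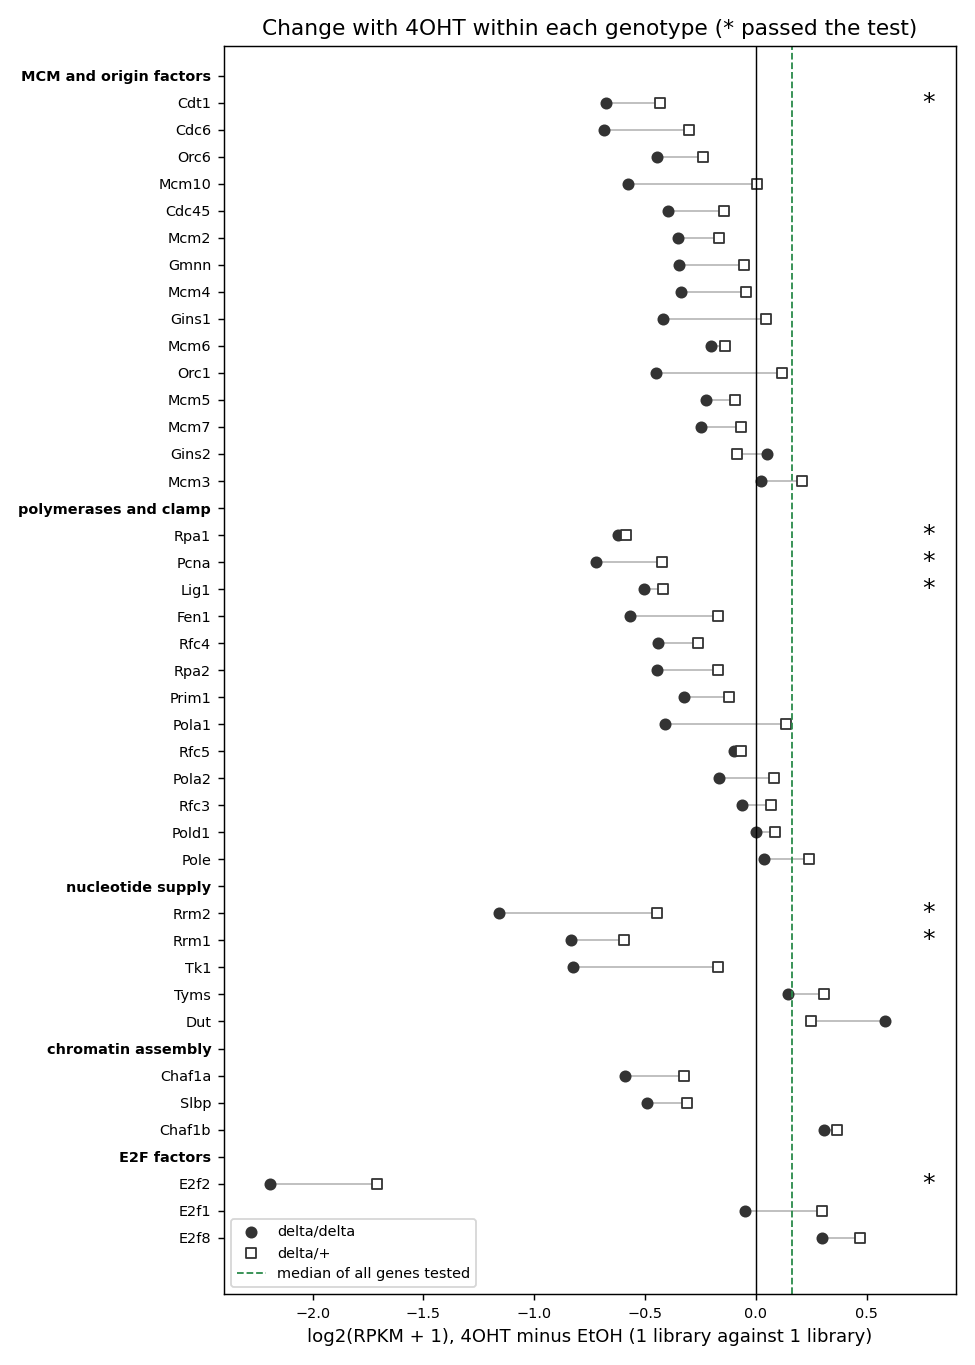
Change of each gene with 4OHT as the difference in log2(RPKM + 1) between the 4OHT and EtOH libraries of delta/delta (filled circles) and of delta/+ (open squares), with no error since each point compares 1 library with 1 library. Asterisks mark the 7 genes that passed the limma test over both genotypes, and the dashed line is the median of all genes tested, 0.16. The circle lies to the left of the square for 37 of the 39 genes, and E2f2 lies farthest left.

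Between the genotypes, with treatment as a term, 5 of the 39 genes were higher in delta/delta than in delta/+ and 0 were lower, where 4.68% of all genes tested were higher and 6.91% lower. At an unadjusted p under 0.05, 18 were higher and 0 lower, a count with no share of all genes tested beside it at that threshold. The 5 were Cdt1, E2f2, E2f8, Chaf1b and Mcm5. Cdt1 was 2.09-fold higher in EtOH and 1.77-fold higher in 4OHT (log2 difference 0.91, limma adjusted p = 0.0289, SE 0.14). E2f2 was 2.30-fold and 1.66-fold higher (0.95, limma adjusted p = 0.0334, SE 0.17), and the helicase subunit Mcm5, at 230.8, 197.1, 143.1 and 133.9 RPKM, 1.61-fold and 1.47-fold (0.62, limma adjusted p = 0.0390, SE 0.12). E2f8 (0.65, limma adjusted p = 0.0416, SE 0.13) and Chaf1b (0.63, limma adjusted p = 0.0421, SE 0.13) were the remaining calls. Cdt1 and E2f2 had also passed as lower with 4OHT, and Mcm5, E2f8 and Chaf1b had not.

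The median difference of the 39 genes was 0.32, and that of all genes tested -0.03. It was 0.46 between the EtOH libraries and 0.21 between the 4OHT libraries. Delta/delta was the higher in both arms for 30 of the 39 genes and the lower in both for 2, Gmnn and Pole. In 18 of the 39 both delta/delta libraries were above both delta/+ libraries, as in 17.0% of genes tested. After median-ratio scaling 16 of the 39 passed as higher, where 10.4% of genes tested did. With genes kept at a mean of at least 5 RPKM 2 passed, Cdt1 and E2f2, and with no filter, or with no term for treatment, 0 passed. Without the delta/delta EtOH library and with no term for treatment, the median difference was 0.07. That fit sets the delta/delta 4OHT library against both delta/+ libraries, so it mixes genotype with treatment.

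The deposited table also holds the authors' own comparison of 4OHT with EtOH within each replicate number, a Kal's Z-test of 1 library against 1 library, which compares those libraries and not the conditions. In replicate 1 of the authors' deposited table, 5 of the 39 genes were lower at a corrected p under 0.05, where 1.26% of the 23240 genes were. These were Pcna, Rrm1, Rrm2, Tk1 and E2f2, and E2f2 had a fold of -4.38 in the authors' deposited table, where falls are written as negative numbers. In replicate 2 the authors' deposited table had 2 of the 39 lower, Pcna with a fold of -1.30 and E2f2 with -3.26, where 0.960% of the 23240 genes were. None of the 39 was higher in either replicate in the authors' deposited table.

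Other genes of DNA replication, from lists that do not include the 39, did not all go the same way. Over 65 such genes tested, 11 rose and 8 fell, with a median log2 change of 0.04, where 22.2% of all genes tested rose and 10.2% fell. After median-ratio scaling 7 rose and 15 fell, with a median of -0.17 (15.3% and 17.4% of all genes tested), and without the replicate block 0 rose and 1 fell. Of 13 other origin and helicase genes 1 rose and 2 fell. Orc5, a subunit of the origin recognition complex, fell from 17.7 to 2.94 RPKM in delta/delta and from 20.5 to 1.89 RPKM in delta/+ (log2 change -2.57, limma adjusted p = 0.00288, SE 0.20). That change was larger than any of the 39, and the other ORC genes among the 39, Orc1 and Orc6, had -0.17 and -0.34 and did not pass. Of 24 other polymerase and fork genes 0 rose and 4 fell, among them Pold3, a subunit of polymerase delta (-0.77, limma adjusted p = 0.0128), and Clspn, the checkpoint mediator claspin (-0.77, limma adjusted p = 0.0257).

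Of 17 other genes of nucleotide supply, by contrast, 9 rose and 1 fell, against 22.2% and 10.2% of all genes tested, with a median of 0.55. Shmt1, which makes one-carbon units for thymidylate, went from 8.65 to 36.5 RPKM in delta/delta and from 14.5 to 47.6 RPKM in delta/+ (log2 change 1.80, limma adjusted p = 0.00315, SE 0.15). Dctd, the deaminase that makes dUMP, had 1.05, 8.79, 2.86 and 10.7 RPKM (1.93, limma adjusted p = 0.00488, SE 0.21). Gart of purine synthesis (1.01) and Cad of pyrimidine synthesis (0.98) rose as well. Not all genes of these routes rose: Paics of purine synthesis had -0.09, and Rrm2b, the alternative small reductase subunit, 0.00. After median-ratio scaling 6 of the 17 rose and 1 fell, against 15.3% and 17.4% of all genes tested.

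The counts of the next lists stand beside 22.2% of all genes tested that rose and 10.2% that fell. Of 10 other E2F, DP and RB genes 1 rose, E2f5 (1.04, limma adjusted p = 0.0111), and 1 fell, the E2F partner Tfdp2 (-0.90, limma adjusted p = 0.0154). Of 12 cyclins, kinases and inhibitors of G1 and S phase 3 rose and 2 fell. Ccne1, cyclin E1, had 89.8, 33.8, 49.9 and 28.4 RPKM (log2 change -1.09, limma adjusted p = 0.0122, SE 0.18). Cdkn1b, the inhibitor p27, also fell (-1.02, limma adjusted p = 0.00694), so an activator and an inhibitor of the same kinase were both lower. The 3 that rose were Cdk4, Cdk6 and Ccnd2, all of the G1 kinases, by 0.57, 1.34 and 0.68. Of 11 other chromatin copying genes 1 rose, Cdca7 (1.01, limma adjusted p = 0.0106), and 1 fell, the histone chaperone Asf1b (-0.49, limma adjusted p = 0.0378).

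Of 20 G2 and mitosis genes 0 rose and 3 fell, against 22.2% and 10.2% of all genes tested, with a median of -0.23 beside the -0.20 of the 39. Ube2c, of the anaphase promoting pathway, had 383.8, 198.5, 185.1 and 105.5 RPKM (log2 change -0.88, limma adjusted p = 0.00778, SE 0.12). The proliferation marker Mki67 had 251.6, 98.2, 253.1 and 158.4 RPKM (-1.01, limma adjusted p = 0.0154), and Top2a, the topoisomerase of dividing cells, 186.6, 81.1, 155.3 and 122.3 RPKM (-0.77, limma adjusted p = 0.049). After median-ratio scaling 8 of these 20 fell, where 17.4% of all genes tested did.

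**Figure D4:**
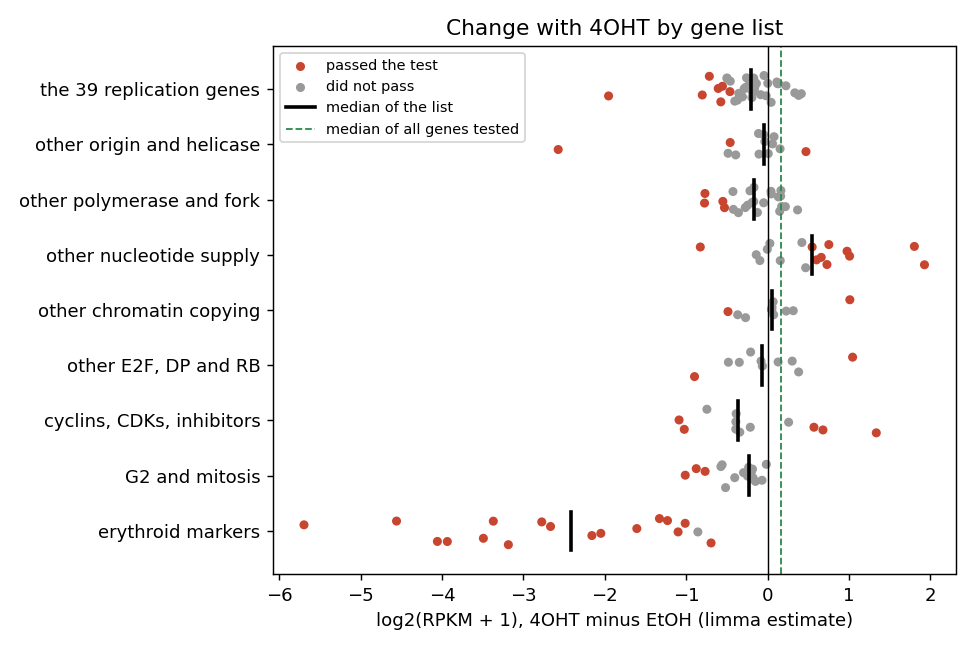
Log2 change with 4OHT (limma estimate, 4OHT minus EtOH) of each tested gene in the 39 replication genes, 7 other cell cycle lists and the erythroid markers. Each point is 1 gene, red where it passed the test, black bars are list medians and the dashed line is the median of all genes tested. The 39 have a median of -0.20 with E2f2 at -1.95, other nucleotide supply genes a median of 0.55, and the erythroid markers reach -5.70.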

How the data were processed

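RNA sequencing values of 4 libraries were used. The authors' values are RPKM per gene and library, per the file headers, and from a Kal's Z-test of each replicate pair a signed fold of proportions with its corrected p-value. The submitters' processing notes name mm 9; not given in the sources used here: aligner, counting, annotation, strand, and which library was made with which kit (TruSeq or NEBNext). Only RPKM and that fold and corrected p-value from the authors' table were used.

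log2(RPKM + 1) of the 9595 genes averaging at least 1 RPKM was fitted with limma 3.58.1 (R 4.3.3; trended prior; terms treatment and genotype, two-sided tests, Benjamini-Hochberg over all genes, threshold 0.05). The fit has 1 residual degree of freedom, the difference in 4OHT response between the genotypes, plus 4.37 from the prior over all genes. The log2 changes of low genes are understated. Genotype is the replicate number in the labels; libraries sharing it deviated together (correlation across genes 0.664). Library totals came from RPKM steps, shared within 0.1% by 97 of 320 single-transcript genes; errors from them cover counting only. The fit was tested on simulated data. Named were genes passing either test, the 4 of each role with the smallest p for 4OHT, up to 4 passing genes of each other list, and Runx1; further genes were chosen after their values were seen. The 39 genes and all lists were chosen with earlier results of these data known. RefSeq promoters were matched by symbol. Scale, pseudocount, filter, GC and length, each term and each library were varied.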

Additional observations from a re-analysis of the deposited data

Results flagged for a closer look

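For 8 of the 39 genes the EtOH and 4OHT libraries differed in opposite directions in the 2 genotypes. The sign was the same for the other 31, and for 81.3% of all genes tested, a similar share. With 1 pair of libraries per genotype these differences were not tested. The response in delta/delta minus that in delta/+, on the log2 scale, was -0.58 for Mcm10, -0.57 for Orc1, -0.55 for Pola1, -0.46 for Gins1, -0.35 for E2f1, -0.25 for Pola2 and -0.13 for Rfc3. Only Gins2 had the higher response in delta/delta, by 0.14. The largest of these, Mcm10, was lower by 0.58 in delta/delta and differed by 0.00 in delta/+.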

How the results depend on the processing

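The 7 falls with 4OHT were 17 under median-ratio scaling (median -0.42, all genes -0.03), 13 with GC and length trends removed, 3 with no filter on low values (Cdt1, Pcna, Lig1 and Rrm2 lost) and 0 with no replicate block (adjusted p 0.083 to 0.504). E2f1 was -0.093 under that scaling and -0.044 with GC and length removed. Leaving out 1 library, with no replicate block, gave medians of -0.39 to -0.03 (the latter without EtOH replicate 1). Mcm2 ranged from -0.576 to 0.061 and Mcm5 from -0.504 to 0.182 (0.116 without 4OHT replicate 2). E2f1 ranged from -0.252 to 0.499 (-0.078 without 4OHT replicate 1). The 5 genes higher in delta/delta were 16 under median-ratio scaling, 2 at a mean of at least 5 RPKM, and 0 with no filter or no treatment term (1 at an unadjusted p under 0.05). Without 1 library, and with no treatment term, the median genotype differences were 0.073 (without EtOH replicate 1) to 0.476. E2f2 ranged from -0.145 to 2.049, Orc6 from -0.185 to 0.259, Pcna from -0.001 to 0.721 and Rfc4 from -0.098 to 0.346. Rpa1 ranged from -0.164 to 0.461, Rrm1 from -0.135 to 0.698 and Rrm2 from -0.011 to 1.148. Without 4OHT replicate 2, Orc6 was -0.083, Rfc4 -0.007, Rpa1 -0.145 and Rrm1 -0.017. The 35.3% of promoters with E2F-type letters was 8.82% in the 100 bases before the start. Pseudocounts of 0.1 and 0.5 kept all 7 and all 5 calls. Shares of all genes are given for the main fit, for median-ratio scaling and, for 4OHT, with no replicate block. For the other settings no such share is given. The cause of these shifts was not tested. The fits of 3 libraries have fewer samples and assume that a lone library varies like the others. With the other term left out, they also mix treatment with genotype. Counting error was at most 5.14% for any of the 39 genes, and it does not cover the spread between libraries or the effect of scaling.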
